A study of Mus musculus with 2 samples.

Results

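The 74 protein-coding heat shock and DNAJ chaperone genes of the mouse were examined in maps of accessible chromatin from G1E cells. They were taken from the 21938 protein-coding genes of the GENCODE M21 annotation by symbol, as every gene named Hspa, Hspb, Hspd, Hspe, Hsph, Hsp90, Dnaja, Dnajb or Dnajc with a further number or letter. The rule uses no measured value. G1E is a cell line of erythroid progenitors that lack GATA1, described in the labels as Gata1- and derived from a male C57BL/6J mouse of postnatal day 0. The assay was ATAC-seq, in which a transposase inserts sequencing adapters into open DNA. The series held 1 group of 2 biological replicates with 50000 cells each, and the labels name no heat or other treatment, so no comparison between conditions was possible. Nothing in the labels says that the replicates came from separate cultures, so the spread between them may be technical.

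Heat shock proteins of the HSP70 class bind unfolded stretches of other proteins in a cycle driven by ATP. DNAJ proteins deliver those clients and start ATP hydrolysis, while HSP110 proteins release the spent nucleotide. HSP90 acts later on folded clients such as kinases and receptors, and the chaperonin of mitochondria encloses whole proteins. Under heat, the factor HSF1 binds heat shock elements, which are arrays of alternating GAA and TTC units in promoters. Under stress of the endoplasmic reticulum (ER), ATF6 and NF-Y act through the ER stress element. In red cell precursors HSP70 is known for shielding GATA1 from caspase cleavage, and the mitochondrial HSP70 for its part in iron-sulfur cluster assembly.

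The data were the authors' peak lists, 21194 merged regions in replicate 1 and 22620 in replicate 2, of which 17425 joined regions were in both. A promoter region lies within 1000 bp of any annotated start site of a gene. Each region carries the signal value that the authors' peak caller gave it, a measure of enrichment that is not scaled between libraries. Signals were therefore also read as percentiles, the rank of a region within its own replicate's list. The depth of the libraries is unknown, and the lack of a listed region does not show that a promoter was closed. A region open in few cells and one that is weakly open in all cells cannot be told apart. Of 10 erythroid marker genes, both replicates listed a promoter region for 8, with Alas2 in neither and Hbb-bs in replicate 1 only. Of 10 marker genes of other cell types, 0 had one in both replicates and only Col1a1 had one in replicate 2.

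Heat shock elements of 3 units, here 3 alternating GAA and TTC units with 2 bases between neighbours, lay inside the promoter regions of 7 members in both replicates. These were Hspa8, Hspd1, Hspe1, Hsph1, Hsp90aa1, Dnaja1 and Dnajb6. The stretches are shown because they are the sequence that HSF1 is known to bind and because their place in the accessible region is given further on. Each is written 5′ to 3′ on the gene's own strand in the build mm10, from the RefSeq copy of that genome, with the element in capitals. The pair of Hspa8 elements are at chr9:40801055-40801083, plus strand, and chr9:40801213-40801241. The stretch that Hspd1 and Hspe1 share is at chr1:55088051-55088079, plus strand, written on the strand of Hspe1, and holds 4 units in a row. Hsph1 is at chr5:149636280-149636308, minus strand. Hsp90aa1 is at chr12:110696379-110696407, minus strand. Dnaja1 is at chr4:40722526-40722554, plus strand. Dnajb6 is at chr5:29735844-29735872, plus strand.
Hspa8 first element: gcgagcgtGAAAGTTCCAGAAcgccgcgg
Hspa8 second element: cggcacccTTCTGGAAGGTTCtaagacag
Hspd1 and Hspe1: acggtccgTTCTAGAACCTTCCGGAAggc
Hsph1: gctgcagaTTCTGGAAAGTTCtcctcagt
Hsp90aa1: gagggttcTTCCGGAAGGTTCcggaggct
Dnaja1: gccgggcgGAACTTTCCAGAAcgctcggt
Dnajb6: agctccgaGAATCTTCCGGAAcgctagac

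ER stress elements, a CCAAT box followed after 9 bases by CCACG, lay in the promoter regions of 3 members in both replicates: Hspa5, Hsp90b1 and Dnajc3. All 3 encode proteins of the ER. They are shown in the same way, with the element in capitals. Hspa5 is at chr2:34772020-34772048, plus strand. Hsp90b1 holds a pair of elements in opposite orientation, the upstream one at chr10:86705587-86705706, minus strand, and the one nearer the start site at chr10:86705510-86705601. Dnajc3 is at chr14:118937776-118937895, plus strand.
Hspa5: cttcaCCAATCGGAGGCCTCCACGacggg
Hsp90b1 upstream element: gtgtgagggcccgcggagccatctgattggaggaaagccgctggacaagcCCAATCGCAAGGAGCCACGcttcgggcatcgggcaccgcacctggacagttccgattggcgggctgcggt
Hsp90b1 element near the start site: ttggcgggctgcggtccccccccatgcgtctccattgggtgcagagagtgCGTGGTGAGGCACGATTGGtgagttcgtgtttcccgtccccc
Dnajc3: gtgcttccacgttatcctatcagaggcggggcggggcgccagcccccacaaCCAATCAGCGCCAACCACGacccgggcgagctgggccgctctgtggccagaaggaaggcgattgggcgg

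A promoter region was listed for 52 of the 74 members in replicate 1 and for 53 in replicate 2, a mean share of 70.9% ± 0.96 (SD, n = 2). Among all protein-coding genes the shares were 40.5% and 42.1%. In both replicates a region was listed for 49 members (66.2%), beside 39.1% of all genes. A further 7 members had one in 1 replicate only, and 18 had none in either. The authors' longer, pseudoreplicated lists, with 35229 and 39290 regions, are here called lenient. They gave 52 members in both (70.3%), beside 43.3% of all genes, and left 16 members in no list of any kind.

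**Figure D1:**
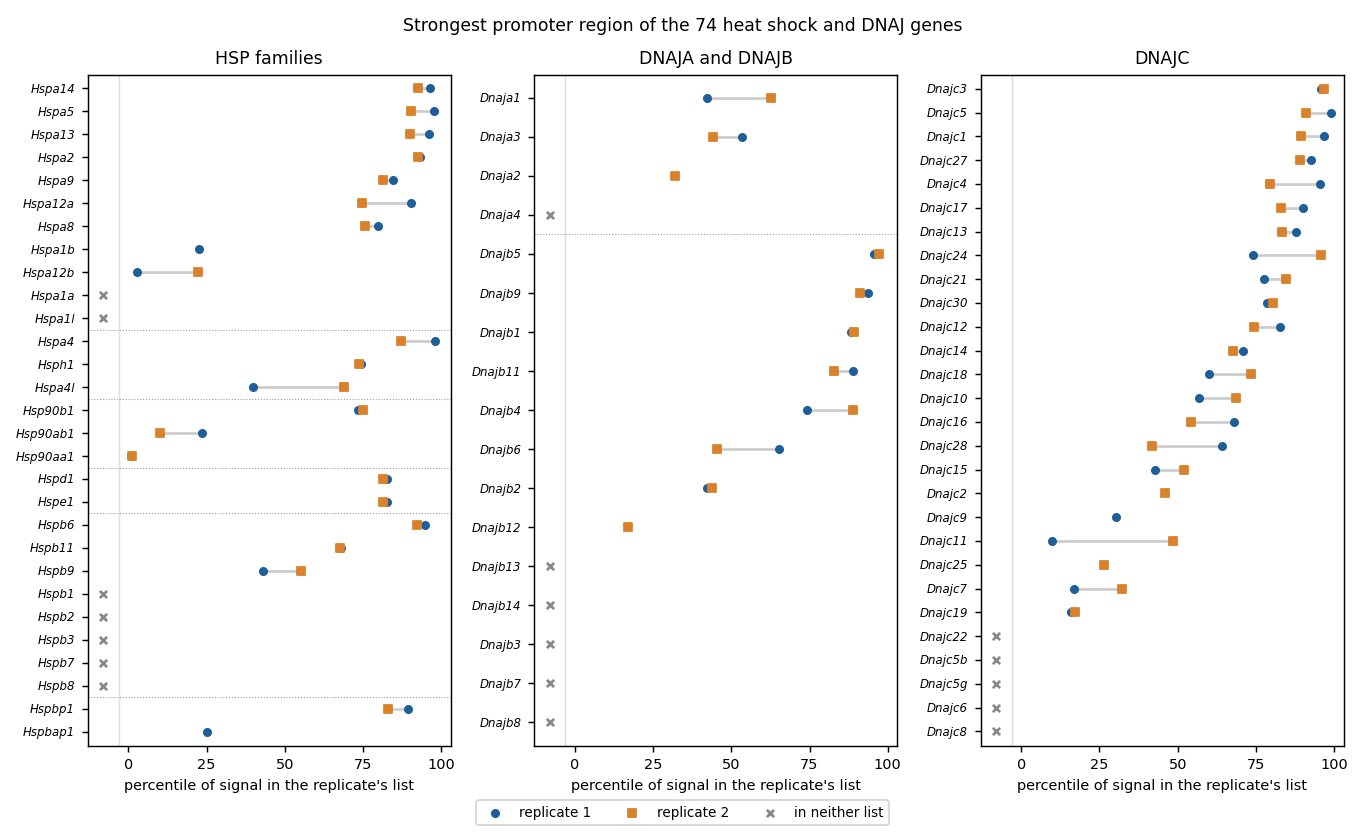
Percentile of signal at the strongest promoter region (x axis, rank within the replicate's own list) for each of the 74 members, with circles for replicate 1, squares for replicate 2 and crosses for the 18 members in neither list. Dnajb5 and Dnajc3 sit above 95 in both replicates and Hsp90aa1 at 0.736 and 1.30.

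The members divide by the CpG content of their start sites. CpG content was the observed to expected ratio of CpG in the window from 250 bases before to 50 after a start site, at the start site where it was highest. It exceeded 0.6 for 60 members (81.1%) and for 56.6% of all genes. Members also had more annotated start sites, a median of 4 beside 3. Of the 60 members over 0.6, 46 had a promoter region in both replicates (76.7%), beside 61.5% of all genes over 0.6. Of the 14 members at or under 0.6, 3 had one (21.4%), beside 9.79% of all such genes. Those 3 were Dnajc4, Hspb9 and Hspa12b. The median ratio was 0.93 for the 49 members with a region in both replicates and 0.55 for the 18 with none. Among those 18, 8 were nevertheless over 0.6, among them Dnajc8, a spliceosome-associated protein, Dnajc6, the auxilin of neurons, and the cytosolic Dnaja4.

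**Figure D2:**
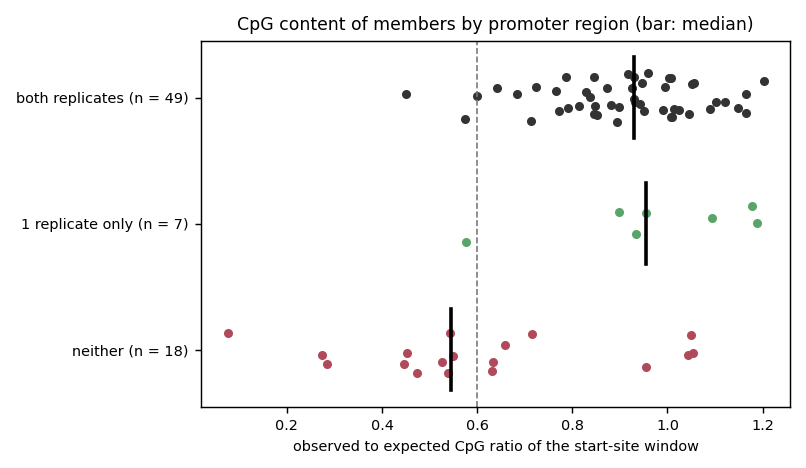
Highest observed to expected CpG ratio of a member's start-site windows (x axis), by whether a promoter region was listed in both replicates, in 1 only or in neither; bars are medians and the dashed line is 0.6. Of the 49 members in the top row, 46 lie right of the line, and 8 of the 18 in the bottom row do.

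In the HSP70 family, a promoter region was in both replicates for 8 of 11 genes. Hspa5, the HSP70 of the ER also called BiP, had signals of 17.3 in replicate 1 and 15.4 in replicate 2, at percentiles 97.8 and 90.3. Hspa14, a ribosome-associated HSP70, had 16.4 and 16.1. Both were among the strongest members in each replicate. Hspa13, an HSP70 of microsomes, had 16.3 and 15.4, and Hspa2, known from testis, had 15.0 and 16.2. Hspa8, the constitutive HSP70 of the cytosol, had 11.9 and 12.3, and the mitochondrial Hspa9 had 12.8 and 13.4. Those last 2 genes lay between the percentiles 75.7 and 84.5, below the 4 preceding genes. The atypical Hspa12a had 14.1 and 12.1, in a region whose summit was nearest the start site of the divergent gene Eno4. Hspa12b, known from endothelium, was the weakest at 4.05 and 6.37, and it was not in the list of both replicates together.

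The heat-inducible HSP70 genes were not listed in both replicates. Hspa1a and the testis gene Hspa1l, which start 547 bp apart on opposite strands, had no promoter region in either replicate. The lenient list of replicate 2 held 1 region for that pair, with a signal of 6.34. Hspa1b had a region in replicate 1 only, 206 bp wide with a signal of 5.93 at percentile 22.7, and its summit lay 466 bp upstream of the start site. In replicate 2 a lenient region for Hspa1b had a signal of 7.07. Hspa1a and Hspa1b are near-identical copies: 296 of 300 bases (98.7%) were identical from 250 before to 50 after the start site. How reads that align to both copies were handled was not stated in the labels or files, so the values of both genes are uncertain. The 200 bases before the start site of Hspa1a (chr17:34972157-34972356, minus strand) are shown because this textbook heat shock promoter held no region in the thresholded lists, with a 2-unit heat shock element and a CCAAT box in capitals.
Hspa1a: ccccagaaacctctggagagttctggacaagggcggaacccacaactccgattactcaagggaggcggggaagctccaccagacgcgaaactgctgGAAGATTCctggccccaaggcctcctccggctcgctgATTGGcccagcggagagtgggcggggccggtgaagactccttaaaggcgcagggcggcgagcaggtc

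In the HSP110 family, both replicates listed a promoter region for all 3 genes. Hspa4 had signals of 17.4 and 14.5, Hsph1 11.0 and 12.0, and Hspa4l, known mainly from testis, 7.24 and 11.2. Hspa4 was highest in each replicate. Hspa4l differed most between replicates, at percentiles 39.8 and 69.0.

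The 3 HSP90 genes were also listed in both replicates, but their ranks lay far apart. Hsp90b1, the HSP90 of the ER, had signals of 10.9 and 12.1 in regions of 1120 and 1172 bp. Hsp90ab1, the constitutive form of the cytosol, had 6.00 and 5.38, at percentiles 23.5 and 10.3. These 2 regions did not overlap, with summits 689 bp and 112 bp upstream of a start site. The replicate 1 region that overlapped the latter had a signal of 5.96 at percentile 22.9. Hsp90aa1, the inducible form, had 3.35 and 3.85 in regions of 629 and 677 bp with 3 summits each, at percentiles 0.736 and 1.30. These regions lay at an internal start site, with summits 6.19 kb and 6.22 kb from the outermost one. Replicate 2 alone also listed a weaker region, with 3.79, nearer the outermost start site. Hsp90aa1 was the weakest member promoter in both replicates. By the deposited −log10 p of its peak, Hsp90aa1 ranked at percentiles 7.88 and 15.1. In the list of both replicates together, Hsp90aa1 had no promoter region. With only the stronger 50% of each replicate's regions, 1 of the 3 genes kept a region in both.

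Hspd1 and Hspe1, which encode the mitochondrial chaperonin and its lid, are divergent genes with start sites as close as 71 bp. They shared 1 region, chr1:55087703-55088393 in replicate 1 and chr1:55087777-55088420 in replicate 2. Its signals were 12.4 and 13.3, at percentiles 82.6 and 81.3. The summit was nearer to Hspe1 in both replicates. The region cannot be given to either gene alone.

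Small heat shock proteins, which hold unfolded clients without ATP, were listed least often of the larger families, at 3 of 8 genes in both replicates (37.5%), near the 39.1% of all genes. Hspb6 had signals of 15.6 and 16.1, in a region it shares with the divergent gene Proser3. Hspb11, a protein of ciliary transport, had 10.1 and 11.0, and the testis gene Hspb9 had 7.47 and 9.48. Hspb1, Hspb2, Hspb3, Hspb7 and Hspb8 were in neither list and in neither lenient list. Hspb1 is the classic heat-inducible member of the family, and Hspb2, Hspb3 and Hspb7 are known from muscle and heart. Of 2 co-factors of HSP70 and small heat shock proteins with like symbols, the exchange factor Hspbp1 had 13.9 and 13.7, and Hspbap1 had a region in replicate 1 only, with a signal of 6.14.

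In the DNAJA family, which holds the closest relatives of the bacterial DnaJ, both replicates listed a region for 2 of 4 genes. Dnaja1 had signals of 7.42 and 10.4, and the mitochondrial Dnaja3 had 8.48 and 8.29. Both lay between the percentiles 42.3 and 62.8, and 0 of the 4 genes had a region among the stronger 50% of both replicates. Dnaja2 was in replicate 2 only with a signal of 7.21, and Dnaja4 was in neither.

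In the DNAJB family the count was 7 of 13. Dnajb5 had signals of 16.1 and 18.3, the highest mean percentile of all members at 96.4. Dnajb9, an ER protein, had 15.1 and 15.7, and Dnajb11, its relative in the ER, had 13.7 and 13.6. Dnajb1, the major HSP40 of the heat shock response, had 13.6 and 15.1. These 4 genes were above the percentile 82 in both replicates. The summit at Dnajb1 was nearest to Tecr, and that at Dnajb11 was nearest to Tbccd1, in each case a gene on the other strand. Dnajb6, which holds back protein aggregates, had 9.80 and 8.44. Dnajb4 had 11.0 and 15.1 at a start site 16.4 kb inside the gene, and weaker regions of 8.20 and 7.84 at its outermost start. Dnajb12, an ER membrane protein, was in replicate 2 only with 5.99. The testis genes Dnajb3, Dnajb7, Dnajb8 and Dnajb13 were in neither list, and so was the ER gene Dnajb14.

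In the DNAJC family, whose proteins share only the J domain, both replicates listed a region for 20 of 28 genes. Dnajc3, an ER protein that inhibits kinases of the translation factor eIF2α, had signals of 16.1 and 18.0. Dnajc5, the cysteine string protein of vesicles, had 18.4 and 15.6, and Dnajc1 had 16.6 and 15.2. Dnajc3 was above the percentile 95 in both replicates. At the other end were Dnajc19, a part of the mitochondrial import motor, with 5.45 and 6.01, and Dnajc7 with 5.54 and 7.23. Dnajc11 of mitochondria had 4.99 and 8.72, and its shift from percentile 9.96 to 48.6 was the widest of all members. Dnajc2, a ribosome-associated partner of Hspa14, and Dnajc25 were in replicate 2 only, with 8.50 and 6.78. Dnajc9, a histone co-chaperone, was in replicate 1 only with 6.48. Dnajc5b, Dnajc5g, Dnajc6, Dnajc8 and Dnajc22 were in neither list.

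By the place where the proteins work, 10 of 10 mitochondrial members and 10 of 13 ER members had a promoter region in both replicates. The share was 66.2% over all members and 39.1% over all protein-coding genes. The mitochondrial count fell to 5 with the stronger 50% of regions, a setting that also lowered the counts of all members and of all genes. By another measure, 4 of the 9 members in the top 10% by signal in both replicates were ER genes. These were Hspa5, Hspa13, Dnajb9 and Dnajc3, and ER genes made up 10 of the 49 members with a region in both. Of 10 members known mainly from testis, 3 had a region in both replicates, and 1 did with the stronger 50%. Of 4 known from muscle and heart, only Hspb6 did. Of 6 nuclear or ribosomal members 3 did. With a window of 2000 bp, or in the list of both replicates together, 5 did. A wider window can add genes of any group, and no share of all genes is set beside those counts. These groups are small, and the lists rest on general knowledge of the genes rather than on measurements in this line.

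**Figure D3:**
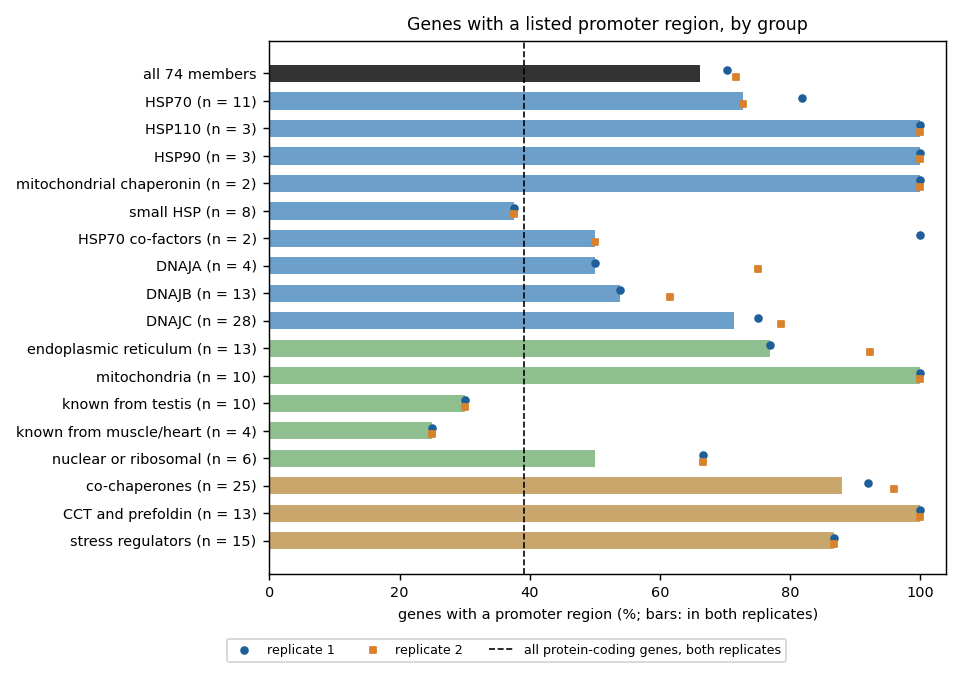
Share of genes with a promoter region (x axis, percent) for all members, 9 families, 5 compartment or tissue lists and 3 lists of other chaperone system genes; bars are genes with a region in both replicates, circles and squares the single replicates, and the dashed line all protein-coding genes at 39.1%. The bars for the mitochondrial list and for CCT and prefoldin reach 100%, and those for small heat shock, testis and muscle genes stay under the line.

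Other genes of the chaperone system were listed at higher shares than the members, and all of them had a CpG ratio over 0.6, beside 81.1% of members. Of 25 co-chaperones, both replicates listed a promoter region for 22 (88.0%), and the other 3 had one in 1 replicate. Stip1, which bridges HSP70 and HSP90, had signals of 15.98 and 16.3. All 13 matched genes of the cytosolic chaperonin CCT and of prefoldin had a region in both. Of 15 heat shock factors and stress regulators, 13 did, and Hsf4 and Atf4 were in neither list. Hsf1 had signals of 12.9 and 13.4, and Hsf2 had 16.5 and 17.7.

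Over the 49 members with a promoter region in both replicates, the median percentile of signal was 78.7 in replicate 1 and 79.6 in replicate 2. For all 8571 such genes the medians were 71.3 and 74.2. The percentiles of a member differed between replicates by a median of 6.95 and by at most 38.6. In both replicates 35 members (71.4%) lay in the upper 50% of the list, beside 69.6% of all genes. The lower 50% held 7 (14.3%), beside 16.2%, among them Hsp90aa1, Hsp90ab1 and Hspa12b. In the top 10% by signal were 9 members (18.4%), beside 15.8% of all genes. Ranked by −log10 p in place of signal, 15 members (30.6%) lay above the percentile 90 in both replicates, beside 16.9% of all genes. Hspa8, Hsph1, Hsp90b1, Hspd1 and Hspe1 were among those 15 but not among the 9. Hspa8, for example, stood at 79.8 and 75.7 by signal and at 93.6 and 93.4 by −log10 p. Member regions were also wider, with medians of 556 and 577 bp beside 495 and 519 bp.

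Many member promoters are shared with a neighbour. A divergent protein-coding gene started within 1000 bp of 22 members (29.7%), beside 12.3% of all genes. Among genes whose promoter was listed in both replicates, the shares were 17 of 49 (34.7%) and 25.01%. The summit was nearest to the member's own start site in 40 of the 49. The 9 exceptions were Dnaja3, Dnajb1, Dnajb11, Dnajc7, Hsp90b1, Hspa12a, Hspa14, Hspb6 and Hspd1. At those the region is as much the neighbour's, and at Hsp90b1 and Hspb6 the nearest gene differed between the replicates. In 33 of the 49 members (67.3%) the summit lay upstream of the nearest start site in both replicates, beside 72.8% of all genes. It lay within 250 bp of that site in 42 (85.7%), beside 81.2%. More than 1 promoter region in both replicates was listed for 8 members (16.3%), beside 14.8% of all genes.

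Within 200 bp centred on the summit, the 3-unit heat shock element was found in both replicates at 3 members, Hspa8, Hspd1 and Hspe1 (6.12%). The last 2 are the same region. Of all 8571 genes with a promoter region, 13 held one there (0.152%). Searching the whole promoter region in place of the 200 bp, a choice made after the data were seen, gave the 7 members printed above (14.3%) beside 57 of all genes (0.665%). At Hspa8 the first element lay 84 bp and 80 bp upstream of the 2 summits and the second 74 bp and 78 bp downstream. At Hspd1 the centre of one match lay 54 bp and 22 bp downstream of the summit. The elements of Hsph1, Hsp90aa1, Dnaja1 and Dnajb6 lay between 87 bp and 190 bp downstream of the summit, toward the gene. At Hsph1 and Hsp90aa1 the element was 4 bp upstream and 2 bp downstream of an annotated start site. Other elements of 3 units within 1000 bp of a start site, such as those of Dnajb5, Dnajb2 and Dnajc1, lay outside the regions of both replicates. That of Dnajb5 ended at position 42949490, and its region in replicate 2 began at 42949491. Hspb1 and Hspb2 also held such an element but had no listed promoter region in which it could lie. A 3-unit element 700 bp upstream of a start site of Hspa9 lay inside the region of replicate 2 and outside that of replicate 1.

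**Figure D4:**
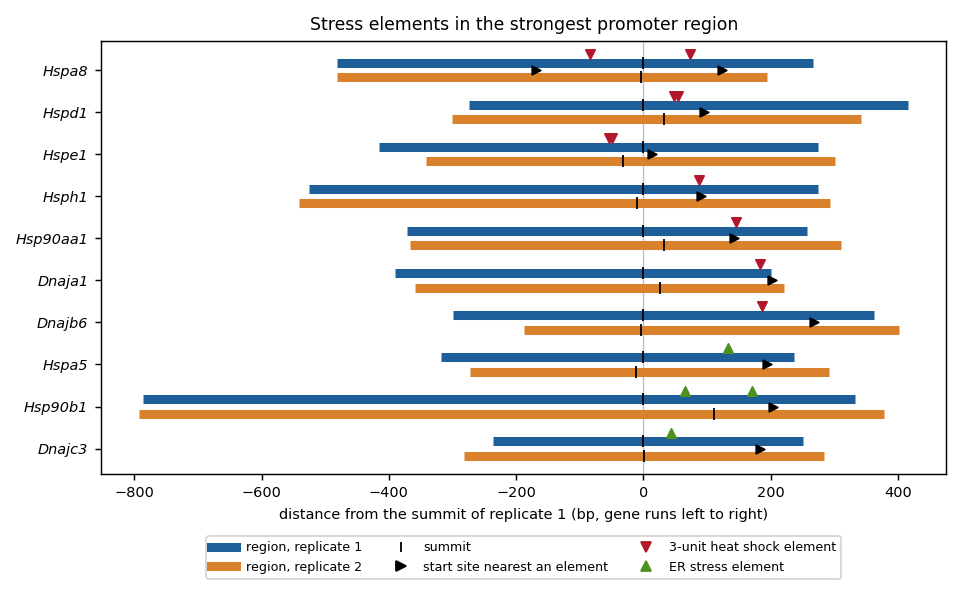
Extent of the strongest promoter region in each replicate for 10 members with stress elements, as distance in bp from the summit of replicate 1 with the gene running left to right; upper bars are replicate 1, lower bars replicate 2, ticks are summits, arrowheads the start site nearest an element and triangles the elements. The elements of Hspa8 flank the summits at 84 bp and 74 bp from that of replicate 1, and those of Dnaja1 and Dnajb6 lie 183 bp and 186 bp downstream.

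The looser 2-unit element (GAANNTTC or TTCNNGAA, which every 3-unit element contains) was found at 7 members in both replicates (14.3%), beside 5.60% of all genes. Besides the 4 genes Hspa8, Hspd1, Hspe1 and Hsph1 these were Dnaja1, Dnajb4 and Hspa4l. At Hspa1a and Hspa1b a 2-unit element lay 100 bp upstream of the start site, outside the thresholded regions of both replicates and inside the lenient region of replicate 2.

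In the 200 bp centred on the summit, the ER stress element was found in both replicates at Dnajc3 and Hsp90b1 (4.08%), beside 14 of all 8571 genes (0.163%). The other 12 genes were Alg12, Calr, Canx, Creld2, Derl3, Ero1lb, Pan2, Pdia6, Pygo2, Syvn1, Xbp1 and Ttc41, whose promoter region is that of Hsp90b1. Searching the whole region, again a choice made after the data were seen, added Hspa5. That gave 3 members (6.12%), beside 18 of all genes (0.210%). The element of Dnajc3 lay 43 bp and 42 bp downstream of the summits and 140 bp upstream of the start site. At Hsp90b1 the pair lay 33 bp and 138 bp upstream of the start site. At Hspa5 the match lay 61 bp upstream of an internal start site and downstream of the outermost one, so inside the annotated gene. Each such match also counts as a CCAAT box.

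In the same 200 bp around the summit, motifs of common promoter factors were found at shares near those of all genes. Both strands were searched for exact letters, and a match describes letters, not a bound site. The CCAAT box was at 20 members (40.8%), beside 38.6%, and the SP1 box GGGCGG at 28 (57.1%), beside 56.0%. The ETS string CCGGAAG, which overlaps the heat shock element of Hspd1 and Hspe1, was at 7 (14.3%), beside 18.8%. GATA was searched as AGATAA. The string TGATAA was counted with it, and either was at 4 members (8.16%), namely Dnajb4, Dnajb6, Hspb9 and Hspbp1, beside 6.55%. YY1 (AAGATGG) and the cyclic AMP element (TGACGTCA) were at 1 member each, beside 4.78% and 3.35%. NRF1 (GCGCATGC) and the TATA box, searched as TATAAA, were at 0 members, beside 3.99% and 1.95%.

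Distal regions, over 1000 bp away from any annotated start site, coding or not, were counted within 50 kb of any start site of a member. At least 1 such region in both replicates was found for 37 of 74 members (50%), beside 35.6% of all genes. Members had a median of 0.5, beside 0. Among genes whose promoter was listed in both replicates, the shares were 53.1% for members and 52.2% for all. Of the 37 members, 18 had 1 region, 10 had 2, 8 had 3 and Dnajc17 had 4. Of the 65 distinct regions, 24 were intergenic, 26 intronic, 13 overlapped an exon and 2 lay in noncoding genes. A member was the nearest protein-coding gene for 26 of them. A GATA string lay in the 200 bp centred on the summit in both replicates for 41 of the 65 (63.1%) and for 18 of those 26 (69.2%), beside 56.7% of all 8227 distal regions. The 3-unit heat shock element was at 0 of the 65 and at 11 of the 8227. The 65 distal regions had a median mean percentile of 52.0, lower than that of the promoters. The promoter median takes only the strongest region of each member, and no median was computed over all distal regions.

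Hspa5 had 3 distal regions, and it was the nearest gene to that 8.14 kb downstream of a start site, in an intron of Rabepk (chr2:34782991-34783639). Its signals were 9.87 and 12.6, and it held 3 GATA strings at the summit of each replicate. Hspbp1 had a region 5.79 kb from its nearest start site, in its own intron (chr7:4670562-4671060), with signals of 10.9 and 15.2 and 2 GATA strings. The 200 bp around the summit of replicate 1 are shown for both, on the gene's strand with the GATA strings in capitals. Each is nearest to the member and holds more than 1 GATA string in both replicates. The same held for 1 region each at Dnajb6, Dnajb8, Hspa2 and Hspb3, all with lower mean percentiles. The stretches shown are chr2:34783142-34783341, plus strand, and chr7:4670733-4670932, minus strand.
Hspa5 distal: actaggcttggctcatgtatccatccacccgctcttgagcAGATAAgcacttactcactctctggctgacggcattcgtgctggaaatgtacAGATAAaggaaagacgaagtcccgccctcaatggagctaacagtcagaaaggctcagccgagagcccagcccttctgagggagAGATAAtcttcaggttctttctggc
Hspbp1 distal: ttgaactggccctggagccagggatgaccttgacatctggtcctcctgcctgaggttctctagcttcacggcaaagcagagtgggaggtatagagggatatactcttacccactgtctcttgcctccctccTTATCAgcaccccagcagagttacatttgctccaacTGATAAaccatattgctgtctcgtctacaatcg

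Several other members had distal regions within 50 kb. Hsph1 had one 12.5 kb upstream (chr5:149648902-149649823) with signals of 10.2 and 8.81 and a GATA string in both replicates. Hsp90aa1 had one 3.93 kb upstream of its outermost start site (chr12:110706660-110707270) with 10.6 and 10.4. These were above the 3.35 and 3.85 of its strongest promoter region, whose summits lay 6.19 kb and 6.22 kb inside the gene from that site. A second Hsp90aa1 region, in its own intron, had 4.27 and 4.85. Hspbap1, whose promoter was listed in replicate 1 only, had 2 intronic regions with 10.8 and 12.6 and with 9.40 and 12.6. Dnajc16 had 3 regions, that in its own intron with 11.5 and 11.9 and the others nearest to Agmat. Dnajc11 also had 3, of which 1 was nearest to Phf13. Of the 18 members with no promoter region, 7 had a distal one (38.9%), near the 35.6% of all protein-coding genes. Hspb3 had 3, each with Hspb3 as the nearest coding gene, and that 35.6 kb upstream had signals of 12.5 and 16.1. Dnajb8 had 3, of which 1 was nearest to Gata2, a hematopoietic factor that starts nearby. The 3 regions of Dnajb14 all lay in its neighbour Dapp1. A region within 50 kb is not shown to act on the member.

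**Figure D5:**
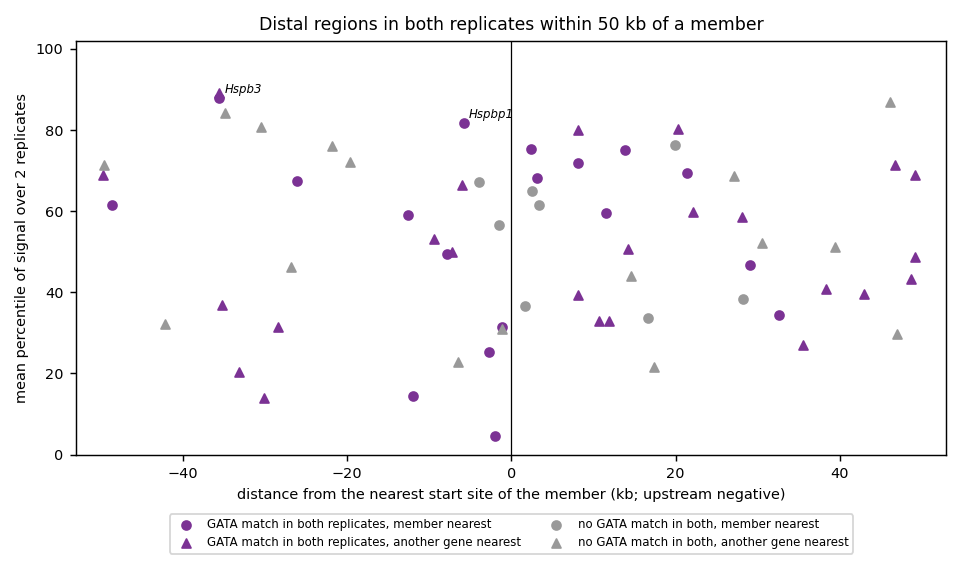
Distal regions near members, listed in both replicates and at most 50 kb away, by distance from the member's nearest start site in kb (x axis, upstream negative) and mean percentile of signal over the 2 replicates (y axis); purple marks a GATA string at the summit in both replicates, and circles mark regions whose nearest coding gene is the member. Hspb3 and Hspbp1 are the highest of the circles, at mean percentiles of 87.8 and 81.7.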

How the data were processed

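Per the labels, ATAC-seq was done on 2 replicates of G1E in the build mm10. The authors deposited peak lists with a signal value and a −log10 p value per peak, as their peak caller gave them. The aligner, the caller and the treatment of reads with several alignments were not given in the sources used. The main lists, thresholded by the irreproducible discovery rate per the submitters' notes on the files, held 26083 and 27810 peaks. Overlapping or touching peaks were merged, keeping the strongest peak's summit and signal. Replicates were joined at an overlap of 1 bp.

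Start sites came from GENCODE M21 and sequence from RefSeq's GRCm38. Exact motif strings were searched on both strands. Python 3.11.15, pandas 2.3.3 and pysam 0.24.0 were used, and scripts were tested on simulated data. No significance test was run, since 1 group of 2 lists without counts allows none. Members and lists were chosen with earlier results of these data known. Named genes were, per family, the 2 members with the highest mean percentile and the first 2 without a region, all listed in 1 replicate only, the 5 with most distal regions, those with a 3-unit heat shock or ER stress element and 14 fixed genes, and further members were named after their values were seen. Of the list symbols, Cct6a matched no protein-coding gene. Alternatives were lenient and joint lists, unmerged peaks, the stronger 50% of regions, other windows, distances, overlaps, start sites and ranks, and leaving out each replicate.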

Additional observations from a re-analysis of the deposited data

How the results depend on the processing

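No paired analysis was possible because the series holds 1 group. The count of 49 members with a promoter region in both replicates stayed between 35 and 53 under the alternatives run, with the lowest for the stronger 50% of regions, where all genes gave 27.2%. With replicate 1 left out it was 53, beside 42.1% of all genes, and with replicate 2 left out 52, beside 40.5%. The count of 37 members with a distal region was 20 with the stronger 50% of regions, beside 19.3% of all genes. It ran from 26 within 25 kb to 52 within 100 kb. Leaving out a replicate, which drops the need for a region in both, gave 41 and 45, with no share of all genes set beside them. At 25 kb all genes gave 24.1% and at 100 kb 50.5%. The median over members of the mean percentile was 81.2, beside 72.5 for all genes. It was 83.9 ranked by −log10 p (all genes 72.6), 72.2 ranked among promoter regions alone (all genes 61.9), and 79.6 or 78.7 with replicate 1 or replicate 2 left out.

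For motifs, the start-site windows of all 74 members replaced the 200 bp around the summits of 49. A match at any start site counted, members had more start sites, and all genes here were all 21938. The 2-unit heat shock element was at 32 members (43.2%, all genes 33.5%) and the 3-unit element at 8 (10.8%, 1.49%). CCAAT was at 51 (68.9%, 61.8%), SP1 at 57 (77.0%, 56.7%) and ETS at 19 (25.7%, 17.4%). NRF1 was at 4 (5.41%, 5.58%), YY1 at 11 (14.9%, 16.7%) and the cyclic AMP element at 4 (5.41%, 3.50%). TATA was at 17 (23.0%, 30.4%) and GATA at 26 (35.1%, 40.3%). The whole promoter region, added after the data were seen, gave 7 with the 3-unit element and 3 with the ER stress element. With a replicate left out the counts lay between 3 and 4 for the 3-unit element, 0 and 1 for NRF1, and 1 and 2 for both YY1 and the cyclic AMP element. Over the families and lists, 163 of 170 alternative counts stayed within 1.5 times the main one. Limits are the unknown depth, lists from 2 libraries of 1 line, and copies such as Hspa1a and Hspa1b. The cause of these shifts was not tested.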
